A study of Mus musculus with 6 samples.

Results

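C-type lectin receptors are a superfamily of proteins, most of them membrane-bound on myeloid cells, that recognise sugars, lipids or proteins through a C-type lectin-like domain. Some activate the cell through an immunoreceptor tyrosine-based activation motif of their own or of the adaptor chains FcRγ and DAP12, which recruit the kinase Syk and the adaptor Card9, and others carry an inhibitory motif that recruits phosphatases. A further group, with the mannose receptor and DC-SIGN as its best-known members, takes up glycosylated cargo for degradation and antigen presentation, and dendritic cells and macrophages of marrow cultures carry many of these receptors. The genes were taken from the count tables by symbol, as those named Clec with a number and letter, those named Cd209 with a letter from a to h, and Mgl2, Mrc1, Mrc2, Ly75 and Cd302. This gave 44 genes of 24062 rows. A few of them, such as Clec16a and Clec11a, are not membrane lectin receptors in spite of their symbols.

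Marrow of C57BL/6J mice was cultured with GM-CSF at 20 ng/ml, refreshed on days 3, 6 and 10, on a stiff substrate of 50 kPa (high tension) or a soft one of 2 kPa (low tension), and polyA RNA was sequenced from 3 samples of each. The comparison asks how the stiffness of the surroundings alters transcription in these cells. Strain, cytokine and feeding were shared by both groups, no sort is named, and the labels do not say whether replicates came from separate animals or cultures, so p-values cover sample-to-sample spread alone, part or all of which may be technical. Levels are CPM, read counts scaled to the library total, after TMM scaling, and each is an average over all cells of a culture, in which fewer cells of a type and less RNA per cell cannot be told apart. Changes are log2 fold changes of 50 kPa over 2 kPa with standard errors, from edgeR's quasi-likelihood test over 13155 genes, and a Benjamini-Hochberg adjusted p under 0.05 was called. Libraries held 33834485 to 36270938 counts, so that 3 counts correspond to 0.072 to 0.0933 CPM.

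The libraries did not fall evenly into their groups. High tension replicates 1 and 2 were the closest pair (chi-square divided by its degrees of freedom 6.71, with 122 to 418 in every other pair, so even this pair differed beyond sampling noise), and low tension replicate 1 was closer to each of the 3 high tension libraries than to either other low tension library. Among genes that define the cell types such a culture can hold, 4 of 8 megakaryocyte and platelet, 6 of 10 neutrophil and 5 of 6 B cell markers were called lower at 50 kPa and 0 higher. Over all genes, edgeR called 1.98% lower and 1.47% higher. The shares over all genes were 14.8% lower and 13% higher at an unadjusted p under 0.05, and 9.51% lower and 8.52% higher by DESeq2. Of 5 classical monocyte markers 2 were called lower and 0 higher by edgeR, with sums of 802 to 1437 CPM at 50 kPa and 945 to 1459 CPM at 2 kPa. Both at an unadjusted p under 0.05 and by DESeq2, 1 was higher (F13a1) and 2 were lower. F13a1 was higher in every 50 kPa library, with a change of 0.86 ± 0.22, so this list was mixed in direction. The 6 basophil and mast cell markers summed to 31.5 to 108 CPM at 50 kPa and 176 to 625 CPM at 2 kPa, with 0 called by edgeR and 6 lower both at an unadjusted p under 0.05 and by DESeq2. The 9 macrophage markers summed to 4188 to 4712 CPM at 50 kPa and 1360.0 to 2872 CPM at 2 kPa, with 0 called by edgeR, 6 higher at an unadjusted p under 0.05 and 5 higher by DESeq2. The 5 markers of mature dendritic cells summed to 722 to 1555 CPM at 50 kPa and 1843 to 4607 CPM at 2 kPa, with 0 called by edgeR, 4 lower at an unadjusted p under 0.05 and 4 lower by DESeq2. The dendritic cell transcription factor gene Zbtb46 was at 7.08 to 10.3 CPM at 50 kPa and 9.37 to 12.6 CPM at 2 kPa. It was listed among 6 markers of type 2 conventional dendritic cells. These summed to 1796 to 1888 CPM at 50 kPa and 1027 to 1703 CPM at 2 kPa. The 7 markers of type 1 conventional dendritic cells summed to 298 to 466 CPM at 50 kPa and 406 to 618 CPM at 2 kPa. Each list had 0 calls by edgeR, and 1 lower both at an unadjusted p under 0.05 and by DESeq2. In the type 1 list, Xcr1, the defining receptor, was at or near 0 in every library, while Irf8 was at 166 to 432 CPM.

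Of the 44 genes, 40 had at least 1 count, 29 had a mean above 1 CPM over the 6 libraries and 21 were above 1 CPM in every library. The group means were above 1 CPM for 27 genes at 50 kPa and for 28 at 2 kPa. Together they took 0.705%, 0.706% and 0.602% of all counts at 50 kPa, against 0.522%, 0.382% and 0.564% at 2 kPa, and all 3 shares at 50 kPa were above those at 2 kPa. Clec4n, the gene of Dectin-2, alone made up 23.7% to 35.2% of the lectin counts of a library. Per kilobase of annotated exon (FPKM, means of the 6 libraries), the order was Clec4n (1238), Mgl2 (436), Clec7a (283), Clec4e (163), Clec4d (161), Clec2d (76.0), Mrc1 (76.0) and Clec10a (74.2). Clec4n was the highest in every library on this scale. Neighbours in this order overlapped in their ranges over libraries, except that the lowest value of Clec4d was above the highest of Clec2d. Cd209f, Clec14a, Clec18a and Clec4f had 0 counts in all 6 libraries, which allows up to 0.0933 CPM in a library by counting error. Clec4f marks liver Kupffer cells and Clec14a endothelial cells.

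Of the 31 genes that passed the low-count filter, 1 was called higher and 1 lower at 50 kPa (1.47% and 1.98% of all genes). That is 6.45% of the lectin genes tested, beside 3.45% of all genes, and with counts this small the shares are not a result about the family. Clec2l was the gene called higher and Clec12a the gene called lower. At an unadjusted p under 0.05 there were 7 higher and 5 lower, 38.7% of those tested, beside 27.8% of all genes (13% higher, 14.8% lower). DESeq2 called 4 higher (Clec4n, Mgl2, Clec16a, Clec2l) and 4 lower (Clec12a, Clec1b, Clec4b2, Mrc2), 25.8% of the lectin genes beside 18% of all genes it tested (8.52% higher, 9.51% lower). Levels at 50 kPa and 2 kPa did not overlap in 8 lectin genes, 5 higher and 3 lower, which is 25.8% beside 34.1% of all genes (17.2% higher, 16.9% lower). The size of the fold changes stood further from the rest: the median absolute log2 fold change was 0.76 over the 31 genes and 0.26 over all genes, with 20 positive and 11 negative values and a median of 0.58 beside -0.028 over all genes. The spread inside the groups was larger as well. The highest library exceeded the lowest by a median of 1.64-fold at 50 kPa and 2.21-fold at 2 kPa over the 29 genes above 1 CPM, beside 1.18-fold at 50 kPa and 1.36-fold at 2 kPa over 11880 tested genes above 1 CPM with counts in every library.

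**Figure D1:**
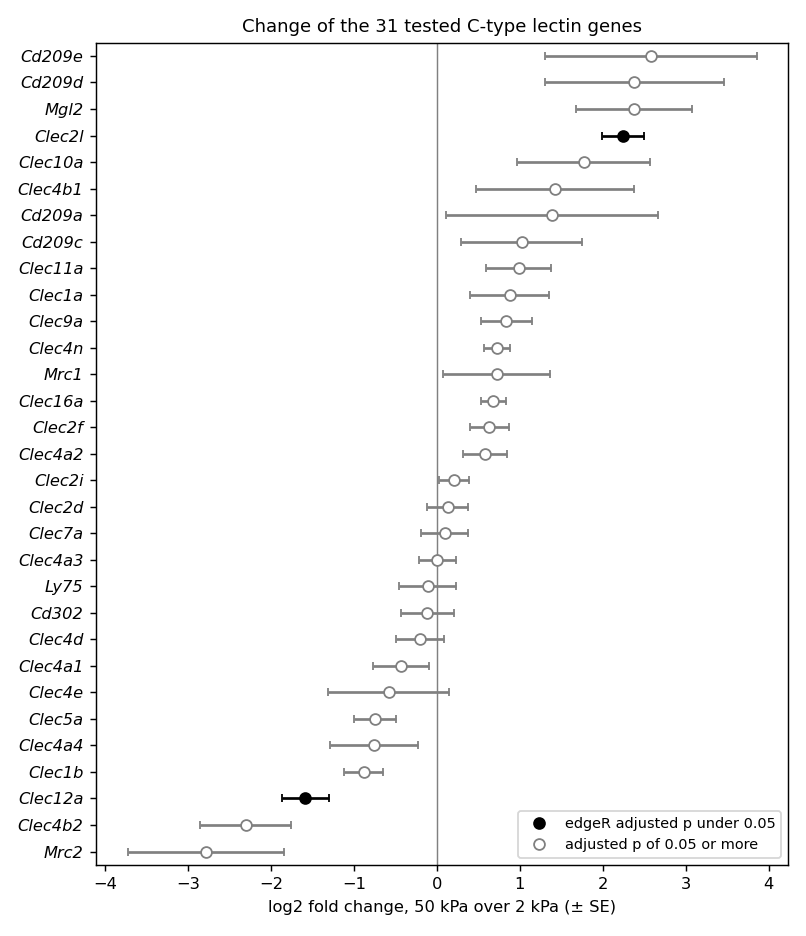
Log2 fold changes (x axis, 50 kPa over 2 kPa, bars ± SE) of the 31 tested C-type lectin genes (y axis, sorted by change). Filled points mark Clec2l and Clec12a, the genes with an edgeR adjusted p under 0.05; Cd209e, Cd209d and Mgl2 had changes of similar size to Clec2l with wider error bars.

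Clec2l rose at 50 kPa. It encodes a membrane protein of the Clec2 group, which in humans is known mainly from brain, and its gene (chromosome 6, 38663069 to 38680864, plus strand of GRCm38) lies far from the other Clec2 genes, which sit in the natural killer gene complex. It was at 20.7, 16.7 and 12.6 CPM at 50 kPa, against 4.32, 2.83 and 3.39 CPM at 2 kPa. The lowest library at 50 kPa was well above the highest at 2 kPa, and the change was 2.24 ± 0.25, or 4.73-fold (edgeR adjusted p = 0.0286). Leaving out low tension replicate 2 or 3 or high tension replicate 1 or 2 ended the call, with changes of 2.08 to 2.26 and adjusted p-values of 0.0546 to 0.157, while over all 17 alternatives the change was 2.08 to 2.59 and the adjusted p 3.26e-13 to 0.157.

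Clec12a fell at 50 kPa. It encodes an inhibitory receptor that recognises uric acid crystals and dead cells and is carried by granulocytes, monocytes and dendritic cells, and its gene (chromosome 6, 129342691 to 129365303, plus strand) lies in the Dectin-1 cluster. It was at 17.6, 20.0 and 24.3 CPM at 50 kPa, against 42.2, 86.9 and 56.7 CPM at 2 kPa. Every library at 50 kPa was below every library at 2 kPa, low tension replicate 2 was the highest, and the change was -1.59 ± 0.28, a fall to 0.333 of the 2 kPa level (edgeR adjusted p = 0.0450). The call was kept without low tension replicate 1 and ended without each of the 5 other libraries in turn, with changes of -1.71 to -1.26 and adjusted p-values of 0.0563 to 0.202. Over all 17 alternatives the change was -1.92 to -1.26 and the adjusted p 9.3e-06 to 0.202. The 10 neutrophil markers summed to 882, 949 and 1653 CPM at 50 kPa, against 3791, 7298 and 5108 CPM at 2 kPa, which is the library order of Clec12a within each group, and the part of these and of the monocyte and basophil markers in the fall of Clec12a was not tested.

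The 250 bases before the annotated transcription start of both called genes, and of Mgl2 and Cd209a described below, are given from RefSeq on GRCm38. These 4 genes are examples and do not cover every pattern of the family, and no such window was available for Clec4n. Capitals mark matches, on either strand, to PU.1 (GAGGAA), TEAD (GGAATG), AP-1 (TGANTCA) or STAT6 letters (TTC and GAA with any 4 bases between them), and no matches overlap here.
Clec2l: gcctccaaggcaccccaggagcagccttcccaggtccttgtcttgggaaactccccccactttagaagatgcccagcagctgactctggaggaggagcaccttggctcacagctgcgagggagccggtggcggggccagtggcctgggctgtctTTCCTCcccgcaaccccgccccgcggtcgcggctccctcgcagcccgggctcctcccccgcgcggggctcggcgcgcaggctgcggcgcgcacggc
Clec12a: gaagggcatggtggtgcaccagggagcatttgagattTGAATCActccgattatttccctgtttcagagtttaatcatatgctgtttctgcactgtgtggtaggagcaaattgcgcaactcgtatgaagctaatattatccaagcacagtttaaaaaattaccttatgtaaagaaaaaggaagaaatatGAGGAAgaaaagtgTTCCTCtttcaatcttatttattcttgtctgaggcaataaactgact
Mgl2: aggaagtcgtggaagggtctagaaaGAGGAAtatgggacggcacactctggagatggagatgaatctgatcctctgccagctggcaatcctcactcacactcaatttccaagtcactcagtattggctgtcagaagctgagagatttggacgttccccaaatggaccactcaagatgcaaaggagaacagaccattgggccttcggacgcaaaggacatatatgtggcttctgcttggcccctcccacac
Cd209a: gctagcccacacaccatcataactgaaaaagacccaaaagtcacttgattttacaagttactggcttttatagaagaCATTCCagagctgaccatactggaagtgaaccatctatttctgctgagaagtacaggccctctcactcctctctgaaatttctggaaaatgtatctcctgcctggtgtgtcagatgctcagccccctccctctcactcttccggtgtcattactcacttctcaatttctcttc
The Clec2l stretch (chr6:38662819-38663068, plus strand) held 1 PU.1 match, and that of Clec12a (chr6:129349994-129350243, plus strand) held 2 PU.1 matches and 1 AP-1 match. The RefSeq start of Clec12a lies inside the longer GENCODE gene given above. That of Mgl2 (chr11:70130107-70130356, plus strand) held 1 PU.1 match and that of Cd209a (chr8:3748985-3749234, minus strand) 1 TEAD match. Such windows were available for 36 of the 44 genes, in 39 windows. The PU.1 letters were in 46.2% of these and in 23.3% of all 32851 windows, the TEAD letters in 12.8% and 12.6%, the AP-1 letters in 17.9% and 6.75%, and the STAT6 letters in 15.4% and 5.85%. Apart from Clec12a, the lectin genes with AP-1 letters were Cd209f, Cd209g, Clec18a, Clec2e, Clec2g and Clec2h, which did not pass the low-count filter. A match says only that the letters are present.

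In the Dectin-1 cluster of chromosome 6, 5 of 6 genes were above 1 CPM, and only Clec12a was called by edgeR among the 5 tested, beside 3.45% of all genes. Clec7a, which encodes Dectin-1, the β-glucan receptor of fungal cell walls, was at 779, 719 and 811 CPM at 50 kPa, against 742, 442 and 979.6 CPM at 2 kPa. The 50 kPa libraries lay within the 2 kPa range, and the change was 0.095 ± 0.29 (edgeR adjusted p = 0.844). Clec9a, the DNGR-1 receptor for the actin of dead cells on type 1 conventional dendritic cells, was at 12.2, 12.3 and 7.64 CPM at 50 kPa, against 8.33, 4.15 and 5.50 CPM at 2 kPa. Its change was 0.84 ± 0.31 (edgeR adjusted p = 0.150) with groups that overlapped through low tension replicate 1 and high tension replicate 3, and 6 tested markers of those cells, a list without Clec9a, gave 0 calls by edgeR (0 higher and 1 lower at an unadjusted p under 0.05, 1 lower by DESeq2) with a median of -0.41. Clec1b encodes CLEC-2, the podoplanin receptor of platelets. It was at 3.14, 4.18 and 2.78 CPM at 50 kPa, against 7.56, 5.92 and 5.17 CPM at 2 kPa, lower in every 50 kPa library, with a change of -0.88 ± 0.23 that missed the threshold (edgeR adjusted p = 0.0820; DESeq2 adjusted p = 0.00812). The 8 megakaryocyte and platelet markers had a median change of -2.85. They summed to 102, 81.3 and 247 CPM at 50 kPa, against 227, 385 and 249 CPM at 2 kPa. This library order differed from that of Clec1b in both groups and was its reverse at 50 kPa. Pf4, with a change of -0.13 ± 0.51, was the largest part of the sum in every library. The part of these markers in the value of Clec1b was not tested. Clec1b and Clec9a share exon sequence in the annotation, 4.02% of the 50-base stretches of Clec9a, so a small part of their reads could be split between them. Clec1a, which encodes a receptor for fungal melanin, had a change of 0.88 ± 0.47 (edgeR adjusted p = 0.272) and Clec12b was at 0 to 1 count in each library.

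The Dectin-2 cluster, between 122921848 and 123289870 of chromosome 6, held 9 genes, of which 8 were above 1 CPM. Of the 9, 0 were called by edgeR, 2 had an unadjusted p under 0.05 and 2 were called by DESeq2 (in both, Clec4n higher and Clec4b2 lower). The shares over all genes were 3.45%, 27.8% and 18%, so these counts are not a result about the cluster. Clec4n encodes Dectin-2, which binds fungal mannans and signals through FcRγ. It was at 2266, 2127 and 2182 CPM at 50 kPa, against 1373, 1162 and 1441 CPM at 2 kPa. The 3 high tension values were within 1.07-fold of each other and above all low tension values, the change was 0.73 ± 0.16, or 1.65-fold, and the adjusted p narrowly missed the threshold (edgeR adjusted p = 0.0602; DESeq2 adjusted p = 3.8e-06; 0.0519 to 0.263 in the 16 alternatives other than DESeq2). Clec4e, which encodes Mincle, the receptor for mycobacterial cord factor, was at 435, 362 and 1142 CPM at 50 kPa, against 449, 464 and 1993 CPM at 2 kPa. It was highest in replicate 3 of each group, and the change of -0.58 ± 0.73 (edgeR adjusted p = 0.620) turned to 0.50 without low tension replicate 3. Clec4d encodes MCL, the partner of Mincle, and was at 206, 181 and 331 CPM at 50 kPa, against 199, 311 and 318 CPM at 2 kPa, with a change of -0.21 ± 0.29 (edgeR adjusted p = 0.658). Clec4e and Clec4d had the same 3 highest libraries, high tension replicate 3 and low tension replicates 2 and 3, while Clec4n was highest in the 3 high tension libraries, and differences between these genes were not tested.

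The remaining genes of the cluster belong to the DCIR and DCAR groups. Clec4a2 encodes DCIR, an inhibitory receptor of dendritic cells. It was at 82.7, 86.6 and 64.6 CPM at 50 kPa, against 72.0, 49.5 and 34.9 CPM at 2 kPa, and its change was 0.58 ± 0.27 (edgeR adjusted p = 0.217). The related Clec4a3 was at 30.9, 32.7 and 26.5 CPM at 50 kPa, against 40.9, 23.1 and 25.7 CPM at 2 kPa, with a change of 0.0067 ± 0.23 (edgeR adjusted p = 0.988). Levels of both genes overlapped between the groups, since low tension replicate 1 stood above its group. Clec4a1 had a change of -0.43 ± 0.34 (edgeR adjusted p = 0.430) and Clec4a4, below 1 CPM on average, of -0.76 ± 0.53 (edgeR adjusted p = 0.379). The pair of DCAR genes, whose products are activating, had fold changes of opposite sign, a contrast that was not tested. Clec4b2 was at 0.747, 0.508 and 1.56 CPM at 50 kPa, against 2.56, 7.27 and 4.15 CPM at 2 kPa. Every 50 kPa value was below every 2 kPa value and the change was -2.30 ± 0.55, which missed the threshold (edgeR adjusted p = 0.0706; DESeq2 adjusted p = 0.000791). Clec4b1 was at 8.80, 8.78 and 2.86 CPM at 50 kPa, against 5.95, 0.360 and 1.29 CPM at 2 kPa, with a change of 1.42 ± 0.95 (edgeR adjusted p = 0.361) and a 16.5-fold range among the 2 kPa libraries. Without low tension replicate 1 it was 3.07 (edgeR adjusted p = 0.0739). Of the 50-base stretches of Clec4b1, 8.68% also occur in Clec4a2, and of those of Clec4a4, 15.7%, so their counts depend on how reads with several matches were treated.

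**Figure D2:**
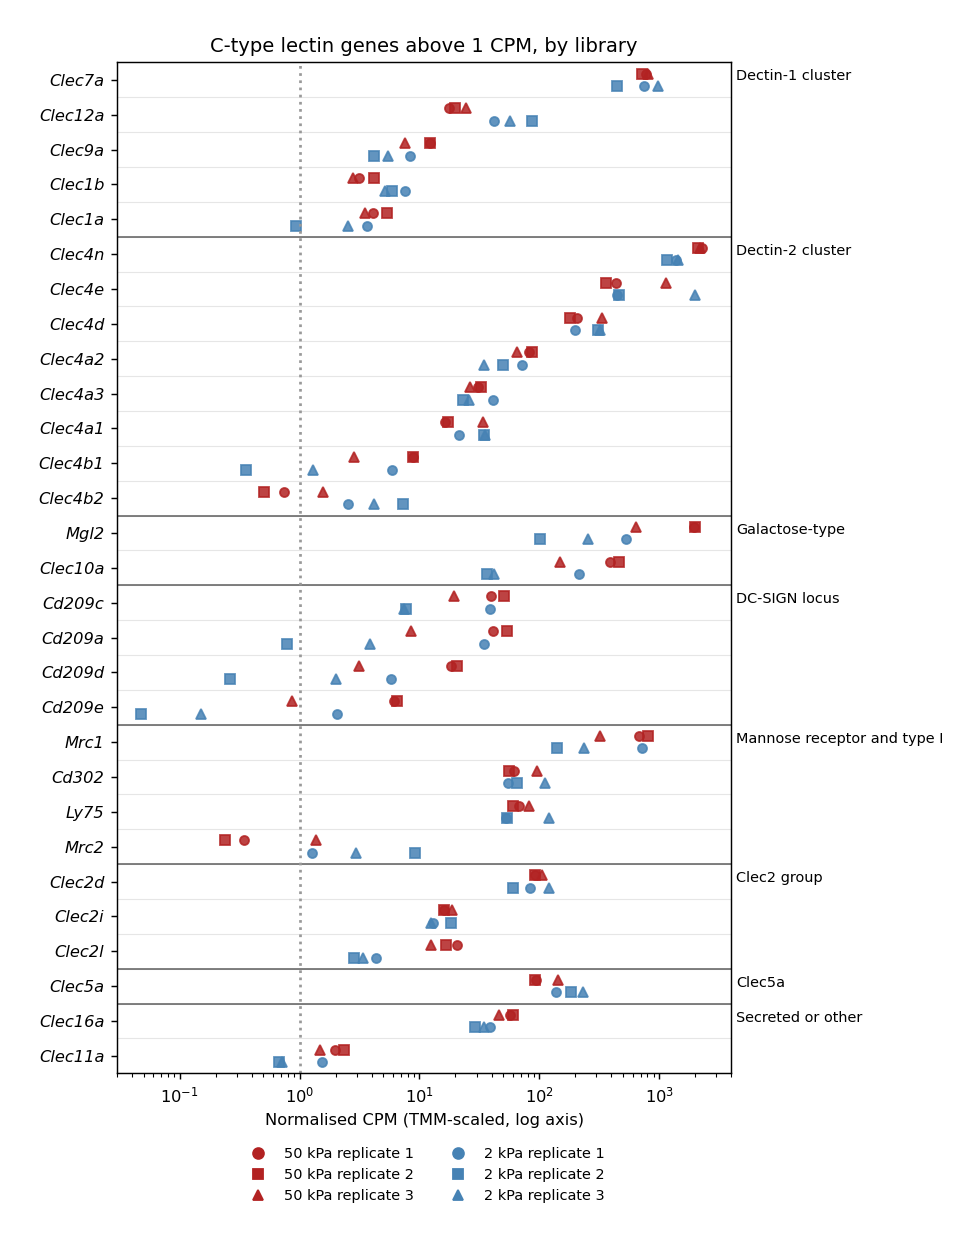
Normalised CPM (x axis, log scale) of the 29 C-type lectin genes with a mean above 1 CPM (y axis, by subfamily), with 1 point per library, 50 kPa in red above 2 kPa in blue. In Clec4n, Mgl2, Clec2l and Clec16a the red points lie right of all blue points, in Clec12a, Clec1b and Clec4b2 left of them, and in the 4 Cd209 genes low tension replicate 1 (blue circle) lies among the red points.

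The galactose-type lectins had some of the largest positive fold changes, without a call. Mgl2 and Clec10a, neighbours on chromosome 11, encode CD301b and CD301a, receptors for terminal galactose and N-acetylgalactosamine that mark alternatively activated macrophages and a subset of type 2 dendritic cells. Mgl2 was at 1969, 1984 and 637 CPM at 50 kPa, against 528, 102 and 255 CPM at 2 kPa. All 3 high tension libraries were above all low tension libraries with high tension replicate 3 nearest to them, and the change was 2.38 ± 0.70 (edgeR adjusted p = 0.102; DESeq2 adjusted p = 0.00249). Clec10a was at 388, 459.7 and 149 CPM at 50 kPa, against 215, 36.3 and 42.0 CPM at 2 kPa. Here low tension replicate 1 was above high tension replicate 3, and the change was 1.77 ± 0.80 (edgeR adjusted p = 0.209). Without low tension replicate 1 the change of Clec10a was 3.09 and was called (edgeR adjusted p = 0.0485, with 0.0161 to 0.458 over the 17 alternatives). The 2 genes share 12.2% of the 50-base stretches of Mgl2, so part of their reads may have been counted for either or for neither. The 9 macrophage markers summed to 4521, 4712 and 4188 CPM at 50 kPa, against 2763, 1360.0 and 2872 CPM at 2 kPa, with every 50 kPa library higher. The 6 markers of type 2 conventional dendritic cells summed to 1837, 1888 and 1796 CPM at 50 kPa, against 1531, 1027 and 1703 CPM at 2 kPa. These sums were also higher in every 50 kPa library, though 3 of the changes were positive and 3 negative, with a median of -0.11. The part of either list in the values of Mgl2 and Clec10a was not tested.

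The DC-SIGN locus of chromosome 8 held 4 genes above 1 CPM, all with positive fold changes and none called by edgeR or DESeq2 (3.45% and 18% of all genes were). At an unadjusted p under 0.05 there were 0 by edgeR and 1 (Cd209e) by DESeq2, beside 3660 and 4046 of 13155 genes. These genes are mouse relatives of human DC-SIGN, an uptake receptor for mannose- and fucose-bearing glycans. Cd209a, the gene named DC-SIGN in the mouse, was at 40.9, 53.4 and 8.59 CPM at 50 kPa, against 34.6, 0.792 and 3.84 CPM at 2 kPa. Low tension replicate 1 was 43.7-fold above low tension replicate 2, and the change of 1.39 ± 1.28 (edgeR adjusted p = 0.497) was smaller than 2 standard errors. Cd209c, the gene of SIGNR2, was at 39.8, 51.0 and 19.3 CPM at 50 kPa, against 39.1, 7.68 and 7.48 CPM at 2 kPa (1.02 ± 0.73, edgeR adjusted p = 0.390). Cd209d, the gene of SIGNR3, was at 18.2, 20.6 and 3.12 CPM at 50 kPa, against 5.77, 0.264 and 2.01 CPM at 2 kPa (2.38 ± 1.08, edgeR adjusted p = 0.208). Cd209e, the gene of SIGNR4, was at 6.16, 6.54 and 0.868 CPM at 50 kPa, against 2.04, 0.0480 and 0.150 CPM at 2 kPa (2.58 ± 1.27, edgeR adjusted p = 0.239). In each of the 4 genes high tension replicates 1 and 2 were the highest pair with low tension replicate 1 next, and low tension replicate 2 or 3 was the lowest. Without low tension replicate 1 the changes of Cd209a, Cd209c, Cd209d and Cd209e were 3.91, 2.28, 3.65 and 5.53 (edgeR adjusted p = 0.0834, 0.0537, 0.11 and 0.0622). Cd209b had 0 to 3 counts per library and Cd209g 0 to 1.

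Mrc1 and its relatives were mixed. Mrc1 encodes the mannose receptor CD206, an uptake receptor of macrophages and dendritic cells. It was at 681, 804 and 324 CPM at 50 kPa, against 721, 141 and 235 CPM at 2 kPa. Low tension replicate 1 was the second highest of all 6 libraries and high tension replicate 3 below it, and the change was 0.72 ± 0.65 (edgeR adjusted p = 0.489). Without low tension replicate 1 it was 1.68 (edgeR adjusted p = 0.0845). Mrc2 encodes Endo180, a collagen uptake receptor of stromal cells and some macrophages. It was at 0.342, 0.239 and 1.36 CPM at 50 kPa, against 1.27, 9.23 and 2.97 CPM at 2 kPa, highest in low tension replicate 2 and overlapping between groups, with a change of -2.78 ± 0.94 (edgeR adjusted p = 0.127; DESeq2 adjusted p = 0.0128) that was -1.70 without that library. The 7 stromal markers summed to 2.71 to 4.33 CPM at 50 kPa and 6.26 to 25.1 CPM at 2 kPa, and their part in the value of Mrc2 was not tested. Ly75, the antigen uptake receptor DEC-205, was at 67.8, 60.7 and 81.8 CPM at 50 kPa, against 53.2, 53.8 and 120.1 CPM at 2 kPa. Cd302, its neighbour on chromosome 2, was at 62.0, 55.4 and 95.4 CPM at 50 kPa, against 54.7, 64.9 and 111 CPM at 2 kPa. In both, low tension replicate 3 was the highest library and the groups overlapped, with changes of -0.11 ± 0.34 and -0.11 ± 0.32 (edgeR adjusted p = 0.846 and 0.830), which turned to 0.39 and 0.25 without low tension replicate 3. Ly75 overlaps exons of a gene on the opposite strand by 249 bases, and reads of the pair cannot be told apart if strand was not used in counting.

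Among the other members, Clec2d encodes Clr-b, a ligand of the inhibitory natural killer receptor NKR-P1B, and was at 91.4, 91.4 and 106 CPM at 50 kPa, against 83.2, 60.3 and 121 CPM at 2 kPa, with a change of 0.13 ± 0.25 (edgeR adjusted p = 0.748). Clec2i encodes Clr-g and averaged 17.0 ± 1.64 CPM at 50 kPa and 14.7 ± 3.32 CPM at 2 kPa (SD, n = 3 each), with a change of 0.21 ± 0.18 (edgeR adjusted p = 0.471). Neither gene separated the groups. Clec5a, an activating receptor of neutrophils and monocytes that pairs with DAP12, was at 93.2, 91.8 and 144 CPM at 50 kPa, against 137, 183 and 231 CPM at 2 kPa, so that high tension replicate 3 lay just above low tension replicate 1. Its change was -0.75 ± 0.26 (edgeR adjusted p = 0.130). The library order of Clec5a differed from that of the neutrophil sums in both groups. It differed from that of the classical monocyte sums at 50 kPa and was the same at 2 kPa (945, 1302 and 1459 CPM). The part of the neutrophil and monocyte markers in the change of Clec5a was not tested. Clec16a encodes a cytosolic protein of endosomes and mitophagy, and was at 57.4, 60.1 and 46.4 CPM at 50 kPa, against 38.5, 28.9 and 34.9 CPM at 2 kPa, higher in all 3 high tension libraries by 0.68 ± 0.15 without passing the threshold (edgeR adjusted p = 0.0619; DESeq2 adjusted p = 0.00390). Clec11a, a secreted growth factor of bone and blood progenitors, had a change of 0.98 ± 0.39 at 0.672 to 2.36 CPM (edgeR adjusted p = 0.168). Clec2f, which the annotation lists as a transcribed pseudogene, had a change of 0.63 ± 0.24 at 0.543 to 1.07 CPM (edgeR adjusted p = 0.150). The 9 other members with counts, which did not pass the filter, had means below 0.15 CPM in both groups.

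Members varied over libraries in a few shared patterns. In 12 of the 29 genes above 1 CPM the 3 highest libraries were high tension replicates 1 and 2 and low tension replicate 1, which is 41.4%, beside 11.8% of the 11880 tested genes above 1 CPM with counts in every library. These 12 were Mrc1, Clec10a, Clec4a2, Clec4a3, Clec9a, Clec4b1, Clec1a, Clec11a and the 4 Cd209 genes. In 6 genes (Clec4e, Clec4d, Clec5a, Cd302, Clec4a1 and Mrc2) the 3 highest were the opposite libraries, high tension replicate 3 and low tension replicates 2 and 3, which is 20.7%, beside 12% of all genes. The 3 high tension libraries were the 3 highest in 4 genes (13.8%, beside 17.8% of all genes) and the 3 low tension libraries in 3 (10.3%, beside 15.7%). Low tension replicate 1 was the highest of its group in 16 of 29 genes (55.2%, beside 29.8% of all genes), and high tension replicate 3 the lowest of its group in 16 of 29 (55.2%, beside 44.1%). These are descriptions of 6 libraries, and the reason for the pattern was not tested.

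**Figure D3:**
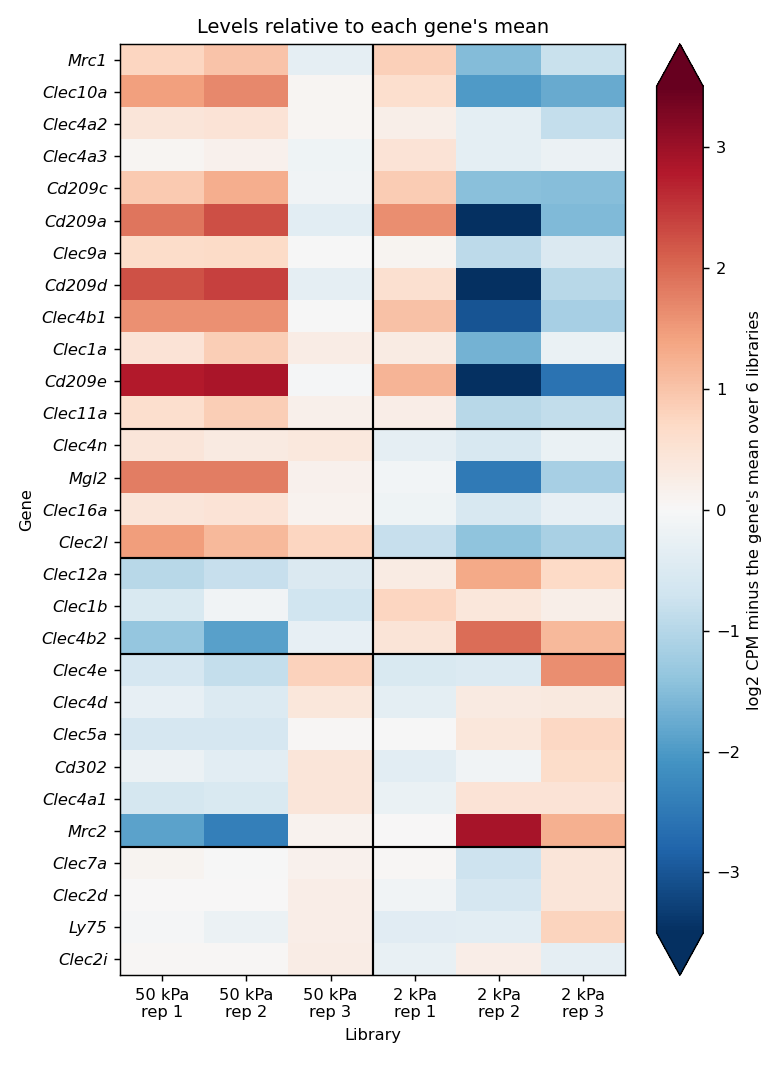
Level of each of the 29 C-type lectin genes in each library as log2 CPM minus the gene's mean over the 6 libraries (colour), with 50 kPa libraries left of 2 kPa libraries. Horizontal black lines separate blocks of genes that share the same 3 highest libraries. The last block pools Clec7a, Ly75, Clec2d and Clec2i, which differ in these libraries. The upper 12 genes are high in 50 kPa replicates 1 and 2 and 2 kPa replicate 1, and the largest contrasts belong to Cd209e, Cd209d and Cd209a.

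Of 34 adaptors, kinases, phosphatases and transcription factors of lectin signalling, all 34 were tested and 0 were called by edgeR, with 1 higher and 7 lower at an unadjusted p under 0.05, and DESeq2 called 1 higher and 3 lower. These are 0% by edgeR, 23.5% unadjusted and 11.8% by DESeq2, beside 3.45%, 27.8% and 18% of all genes, so the counts are not a result about these genes. Their median change was -0.14, with 12 positive and 22 negative values. Tyrobp, the DAP12 chain that pairs with Clec5a, was at 597, 592 and 529.9 CPM at 50 kPa, against 476, 319.9 and 419.9 CPM at 2 kPa. All its high tension libraries were above its low tension libraries, by 0.50 ± 0.17 (edgeR adjusted p = 0.133; DESeq2 adjusted p = 0.0497). Fcer1g, the FcRγ chain used by Dectin-2 and Mincle, averaged 614 ± 83.0 CPM at 50 kPa and 505 ± 93.6 CPM at 2 kPa (SD, n = 3 each), differing by 0.28 ± 0.18 (edgeR adjusted p = 0.348). Syk averaged 475 ± 75.4 CPM at 50 kPa and 582 ± 153 CPM at 2 kPa, differing by -0.29 ± 0.23 (edgeR adjusted p = 0.423). Card9 averaged 75.6 ± 2.31 CPM at 50 kPa and 81.3 ± 22.5 CPM at 2 kPa, differing by -0.10 ± 0.21 (edgeR adjusted p = 0.758). Both had overlapping groups.

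The smallest p-values of the signalling genes belonged to Lsp1, Cblb, Plcg2, Tyrobp, Map3k14 and Rel. Lsp1, a leukocyte protein that in humans binds DC-SIGN, was at 316, 306 and 318 CPM at 50 kPa, against 518, 419 and 457 CPM at 2 kPa, a difference of -0.57 ± 0.12 (edgeR adjusted p = 0.0602; DESeq2 adjusted p = 0.000125). Cblb, a ubiquitin ligase that restrains Syk-coupled receptors, had a difference of -0.76 ± 0.17 (edgeR adjusted p = 0.0632; DESeq2 adjusted p = 0.00391) and Plcg2, a phospholipase below Syk, of -0.36 ± 0.11 (edgeR adjusted p = 0.105; DESeq2 adjusted p = 0.0394). In these 3 genes every 50 kPa library was below every 2 kPa library. The kinase gene Map3k14 of the noncanonical NF-κB arm had a difference of -0.45 ± 0.16 (edgeR adjusted p = 0.146) and the NF-κB subunit gene Rel of -0.85 ± 0.33 (edgeR adjusted p = 0.159), with overlapping groups. Among the phosphatases recruited by inhibitory receptors, Ptpn6 stood at -0.42 ± 0.20 and Inpp5d at 0.30 ± 0.15 (edgeR adjusted p = 0.221 and 0.246).

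**Figure D4:**
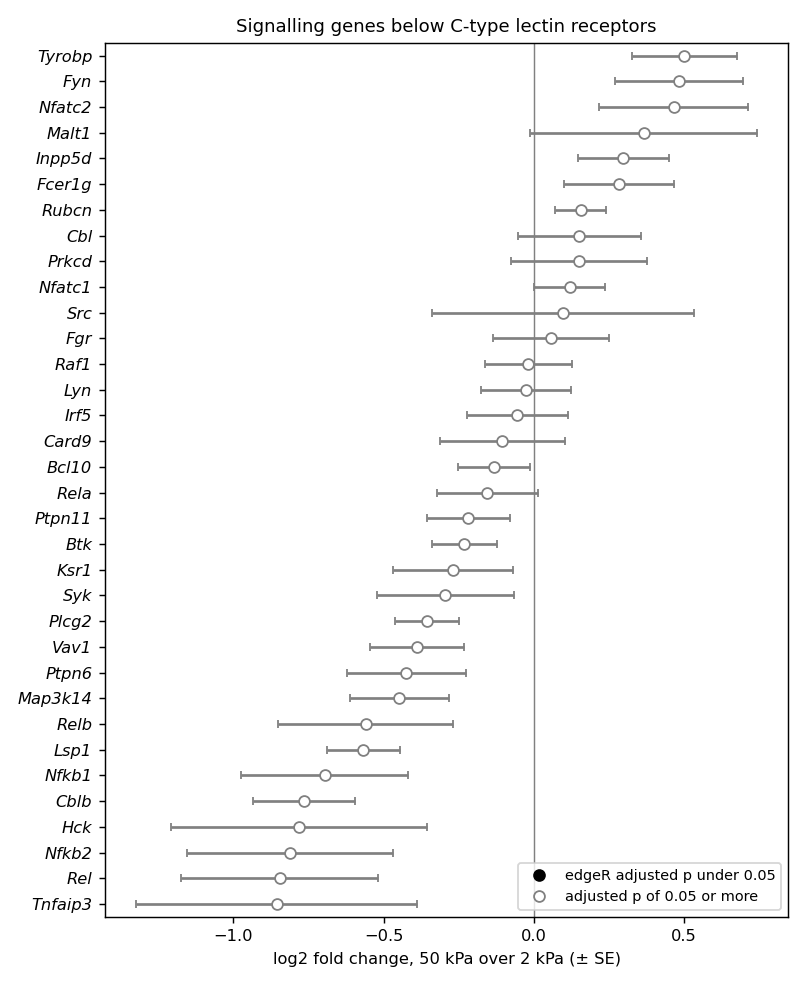
Log2 fold changes (x axis, 50 kPa over 2 kPa, bars ± SE) of the 34 signalling genes (y axis, sorted by change). All points are open, since 0 had an edgeR adjusted p under 0.05, and the values run between -0.86 for Tnfaip3 and 0.50 for Tyrobp.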

How the data were processed

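Polyadenylated RNA of 3 samples at 50 kPa and 3 at 2 kPa was analysed from the read counts per gene symbol that the authors deposited, 1 table per sample. The tools named, per the submitters' processing notes, are TopHat2 2.0.11, HTSeq 0.6.1p2, FastQC 0.11.2 and edgeR 3.8.6 and 3.16.5, with builds mm10 and hg19, and no role or order. For the annotation, the strand setting and reads with several matches, nothing is given in the sources used here. Groups came from the sample titles.

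Counts were filtered with edgeR's filterByExpr (minimum count 10, minimum total 15), scaled with TMM factors and tested with glmQLFit and glmQLFTest in R 4.3.3 (edgeR 4.0.16), adjusted over 13155 genes. The SE is the size of the log2 fold change divided by the square root of the F value. limma 3.58.1, DESeq2 1.42.0, other scalings and filters, a replicate block and left-out or summed libraries were alternatives. The procedure was tested on simulated data. FPKM used union exon lengths of GENCODE vM21 on GRCm38, matched by current symbol for 22750 rows and by older symbol for 916. All genes with a mean above 1 CPM were named, and of 2 further lists those called and the 6 smallest p-values, with a few others named for their role; 1 result of these lists is not reported here. The gene set, lists and motifs were chosen with earlier results of these data known. Figures were drawn with Python 3.11.15 and matplotlib 3.10.9.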

Additional observations from a re-analysis of the deposited data

How the results depend on the processing

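Total-count scaling shifted all genes (median -0.16 in place of -0.028) and gave 4 lectin genes higher at an unadjusted p under 0.05, 77 of all genes called higher and 1 signalling gene called, and put Clec7a at -0.0014 and Clec4a3 at -0.13. A filter of 5 CPM in 3 libraries gave 0 lectin genes called lower and 2 lower at an unadjusted p under 0.05, 20 of all genes called higher and 16 lower, and Clec4a3 at -0.0096. DESeq2 called 4 lectin genes higher and 4 lower, 1121 and 1251 of all genes, and 4 signalling genes. High tension replicates 1 and 2 summed gave 0 lectin genes called higher and 0 lower (4 and 3 at an unadjusted p under 0.05), 0 and 0 of all genes, Cd302 at 0.017 and Clec4a3 at -0.018. Low tension replicate 1 and high tension replicate 3 left out together gave 12 lectin genes called higher and 6 lower, 16 higher at an unadjusted p under 0.05, 902 and 984 of all genes and 4 signalling genes. Those 2 libraries were chosen for lying between the groups, so this raises calls by construction. Of all genes, 3660 of 13155 had an unadjusted p under 0.05 in the main fit. With total counts this was 3409 of 13155, and with the 5 CPM filter 2550 of 10088. It was 2138 of 13429 with the summed replicates and 4624 of 13277 with the 2 libraries left out. Leaving out 1 library at a time, lectin genes called numbered 0 to 2 higher and 0 to 1 lower, and all genes called 0 to 255 higher and 0 to 256 lower. At an unadjusted p under 0.05 there were 4 to 15 lectin genes higher and 3 to 6 lower, while the count over all genes itself moved between 2062 of 13412 and 4184 of 13351. Lectin calls were 0 without low tension replicate 2 or 3 or high tension replicate 1 or 2, 2 higher and 1 lower without low tension replicate 1, and 1 higher and 0 lower without high tension replicate 3. These fits moved the direction of Cd302 (-0.38 to 0.25), Clec2d (-0.083 to 0.43), Clec4a3 (-0.15 to 0.30), Clec4e (-1.28 to 0.50), Clec7a (-0.16 to 0.38) and Ly75 (-0.31 to 0.39), none of them called. The count of 29 genes above 1 CPM was 29 in each of these fits. The cause of the changes in calls was not tested. Whether equal replicate numbers share an animal or day is not stated in the labels, and the samples were therefore treated as unpaired, with the replicate block as an alternative. Deviations from the group means correlated over genes with r = 0.54, -0.11 and 0.49 for numbers 1, 2 and 3. Of 6 libraries, 3 were closest to their own number. These values differ between the numbers and do not decide whether the samples are paired. With the replicate block 2 lectin genes were called lower (Clec12a and, at an edgeR adjusted p of 0.0450, Clec5a), 522 of all genes lower and 4 signalling genes.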

Other observations

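Other genes with a C-type lectin domain, outside the symbols analysed above, were listed (31 genes, 15 of them tested), and those with calls included Selp, Vcan and Colec12. Selp, the P-selectin of platelets and endothelium, was at 0.498, 0.597 and 1.45 CPM at 50 kPa, against 6.94, 9.83 and 7.84 CPM at 2 kPa (log2 fold change -3.26 ± 0.43, edgeR adjusted p = 0.0344). Vcan, the proteoglycan versican, was at 39.3, 39.2 and 66.9 CPM at 50 kPa, against 137, 146 and 269.6 CPM at 2 kPa (-1.93 ± 0.35, edgeR adjusted p = 0.0463). Both genes were lower in every 50 kPa library. Colec12, a scavenger receptor with a collectin domain, was at 5.63, 6.15 and 4.57 CPM at 50 kPa, against 2.23, 1.56 and 1.71 CPM at 2 kPa and higher in every 50 kPa library (1.57 ± 0.22, edgeR adjusted p = 0.0349). Cd72, an inhibitory receptor of B cells and some myeloid cells, stood at 0.65 ± 0.15 and Klrb1f, the receptor for Clr-g, at 0.65 ± 0.20 (edgeR adjusted p = 0.0675 and 0.114). The 8 megakaryocyte and platelet markers had a median of -2.85, and their part in the value of Selp was not tested.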
